A study of Mus musculus with 4 samples.

Results

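The 9 mature miRNAs of the miR-17, miR-18, miR-20, miR-93 and miR-106 family were examined in purified mouse Sertoli cells, the somatic cells that support developing germ cells inside the seminiferous tubules. They were chosen by name, as mmu-miR-17, mmu-miR-17*, mmu-miR-18a, mmu-miR-18a*, mmu-miR-20a, mmu-miR-20b, mmu-miR-93, mmu-miR-106a and mmu-miR-106b (written below without the species prefix), and were 9 of the 567 mouse miRNAs on a 1-colour Agilent miRNA array. There were 4 arrays on 1 slide, and each held RNA from purified Sertoli cells pooled from several B6129 male mice aged 5 to 7 weeks. Sham mice (1 array) received a subcutaneous Silastic tube and a saline injection. Flut+Acy mice (2 arrays) received the androgen receptor antagonist flutamide in such a tube and acyline, a gonadotropin-releasing hormone antagonist that lowers testosterone production, at 20 mg/kg. Flut+Acy+T mice (1 array) received both agents plus a tube of testosterone. The sources used here do not give the length of treatment before the arrays, nor whether the pools behind the 2 Flut+Acy arrays were different, so the spread between them may be technical.

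Most members of the family share a seed, bases 2 to 8 of a mature miRNA, which lead the pairing with target mRNAs. The members are cut from paralogous clusters of hairpins, each transcribed as a single long precursor. They are known for promoting cell cycle progression and survival through targets such as the cell cycle inhibitor Cdkn1a. In the testis the clusters have been studied mainly in spermatogonia. A star marks the strand of the hairpin that usually accumulates less.

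All 9 members had a mature sequence in RefSeq. Of these, 6 shared the seed AAAGUGC, and miR-18a differed from them inside the seed, and the sequences are shown, 5' to 3' with the seed in capitals, to mark which members share one.

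miR-17: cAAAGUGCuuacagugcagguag
miR-20a: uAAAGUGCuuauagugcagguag
miR-20b: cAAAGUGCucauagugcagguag
miR-93: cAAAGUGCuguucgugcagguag
miR-106a: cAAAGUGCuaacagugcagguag
miR-106b: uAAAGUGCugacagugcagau
miR-18a: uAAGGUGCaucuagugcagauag
miR-17*: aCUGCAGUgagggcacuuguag
miR-18a*: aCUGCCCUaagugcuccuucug

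The 6 members with the miR-17 seed had the same base at 15 of their first 21 positions. miR-17 and miR-106a differed at 1 base and shared their last 13 bases, and miR-20a and miR-20b differed at 2 bases and also shared their last 13. Such members may be told apart less well where a probe is short, which was not tested. The probes covered the 3' end of each miRNA, and their annotated spans were 13 and 14 bases for miR-17, 14 and 15 bases for miR-106a and 18 and 19 bases for miR-20a. The 13-base probe of miR-17 was annotated to miR-106a as well, so the signals of these close relatives may share RNA.

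In RefSeq (GRCm38.p6), the hairpins Mir17 (chr14:115043671-115043754), Mir18 (chr14:115043851-115043946) and Mir20a (chr14:115044157-115044263) lie on the plus strand of chromosome 14. Mir20b (chrX:52742113-52742192) and Mir106a (chrX:52742503-52742567) lie on the minus strand of the X chromosome. Mir93 (chr5:138165523-138165610) and Mir106b (chr5:138165737-138165818) lie on the minus strand of chromosome 5, within the span of Mcm7, which encodes a subunit of the replicative helicase.

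Signals are given as the total signal of a miRNA, the background-subtracted fluorescence that Feature Extraction summed over its probes in arbitrary units, and a miRNA counts as detected where that software set its detection flag. The arrays detected 193 mouse miRNAs in Sham, 275 and 270 in the Flut+Acy pair, and 102 in Flut+Acy+T. The Flut+Acy+T array stood apart. Its negative-control spots had an SD of 1326 units, against 2.72 to 7.45 on the other arrays, it held 535 spots flagged as non-uniform against 0 to 4, and its lowest detected total signal was 238 units against 2.67 in Sham. Detection was not a sharp limit, as signals up to 498 units in Flut+Acy+T and 9.38 in Sham were not detected. Total signals were quantile-normalized over the 4 arrays, set to at least 5.46 units, log2 transformed and fitted with limma, and p-values were adjusted by Benjamini-Hochberg over 298 miRNAs, those with a detection flag on any array. Sham and Flut+Acy+T had no replicate and were assumed to vary as the Flut+Acy pair did. On simulated arrays the adjusted p-values of this fit were too small once many miRNAs differed, so they rank the differences and do not hold the stated error rate.

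Loss of androgen action was addressed by comparing Flut+Acy with Sham. On both Flut+Acy arrays 8 of the 9 members were detected, and in Sham 5 of the 9. miR-18a, miR-20a, miR-20b, miR-93 and miR-106b were brighter on both Flut+Acy arrays than in Sham, and miR-17, miR-17* and miR-106a passed detection on the Flut+Acy arrays alone. miR-18a* was detected in neither group.

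The miR-17 to miR-92a cluster on chromosome 14 held miR-18a and miR-20a. Before and after quantile normalization, these had the largest mean differences of the members detected in both groups, but miR-20a lay close to the X-linked miR-20b. On the second Flut+Acy array before normalization, miR-20b (3.88 log2 units) exceeded miR-20a (3.86). miR-20a gave a total signal of 70.1 in Sham, 870 and 1016 in Flut+Acy and 439 in Flut+Acy+T. After normalization it was 1.32 ± 0.10 (SE) log2 units higher in Flut+Acy than in Sham (limma, adjusted p = 0.0402). In the deposited table of the authors' own processed values the limma difference of miR-20a was 0.72 and the call was lost (adjusted p = 0.120). miR-18a gave 7.78 in Sham, 204 and 245 in Flut+Acy and -81.0, not detected, in Flut+Acy+T. Its normalized difference was 1.95 log2 units (limma, adjusted p = 0.00436), and as both Flut+Acy arrays had the same normalized value its error came from the prior of the fit alone. Both miRNAs were well clear of the Flut+Acy spread, although only 2 of the 20 spots of miR-18a were well above background in Sham.

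miR-17 itself lay near the detection limit. Its total signal was -1.66 in Sham, 18.8 and 25.1 in Flut+Acy and -149 in Flut+Acy+T. It was called higher in Flut+Acy (limma, adjusted p = 0.0152), with its Sham value set to the floor. miR-17*, cut from the other arm of the same hairpin, gave 1.84 in Sham, 37.6 and 42.5 in Flut+Acy and -116 in Flut+Acy+T, and was also called higher (limma, adjusted p = 0.0284). Neither was detected in Sham, so no fold is given. Their total signals on both Flut+Acy arrays lay above 9.38, the highest total that went undetected in Sham, but their normalized signals lay below its normalized value of 68.0 units.

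**Figure D1:**
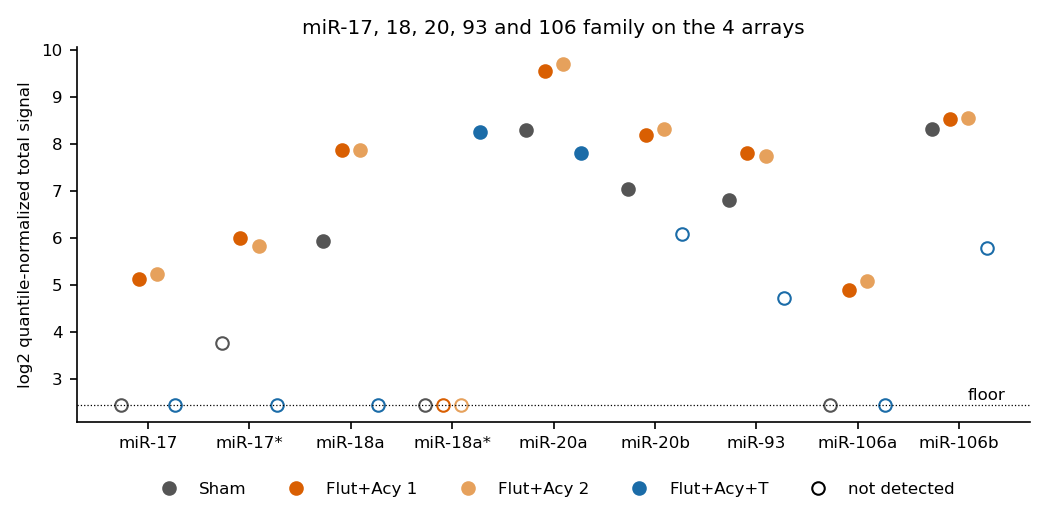
Each point is the log2 quantile-normalized total signal of a family member on 1 array, filled where the miRNA was detected and open where it was not, with the floor of 5.46 units as a dotted line. The 8 members other than miR-18a* sit higher on both Flut+Acy arrays than in Sham, and in Flut+Acy+T only miR-18a* and miR-20a were detected.

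The X-linked members, from the cluster that runs from miR-106a to miR-363, followed. miR-20b gave 24.0 in Sham, 281 and 354 in Flut+Acy and 170, not detected, in Flut+Acy+T. It was 1.21 ± 0.10 (SE) log2 units higher in Flut+Acy than in Sham (limma, adjusted p = 0.0415). miR-106a gave 0.225 in Sham, 15.4 and 22.4 in Flut+Acy and -175 in Flut+Acy+T, and was detected in Flut+Acy alone. It was called higher in Flut+Acy (limma, adjusted p = 0.0253), with its Sham value at the floor and no fold given. The call was lost when the Flut+Acy+T array was left out of the normalization (adjusted p = 0.0556), when the 75th percentile of all mouse miRNAs set the scale (0.0570) and with processed spot signals (0.0579).

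Before and after quantile normalization, the members within Mcm7 had the smallest differences of those detected in both groups. miR-93 gave 19.7 in Sham, 186 and 215 in Flut+Acy and 70.8, not detected, in Flut+Acy+T. Its normalized difference between Flut+Acy and Sham was 0.95 ± 0.05 log2 units (SE; limma, adjusted p = 0.0250). Its 15-base probe gave 0.389 units in Sham, at background, so this difference rests mainly on the 16-base probe, whose total was 19.3 in Sham and 167 and 193 in Flut+Acy. In the authors' deposited table the difference of miR-93 was 3.18 log2 units (limma, adjusted p = 0.0210). That was the largest of the members detected in both groups, so the ranking by cluster did not hold there. miR-106b gave 71.2 in Sham, 381 and 439 in Flut+Acy and 139, not detected, in Flut+Acy+T. Its normalized difference of 0.22 ± 0.02 log2 units was the smallest of the family (SE; limma, adjusted p = 0.0349), and the call was lost in the authors' deposited table (adjusted p = 0.106).

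Of the 8 members measured in this comparison, all 8 were called higher, where 25.5% of the 298 miRNAs were called higher. The 298 were all miRNAs fitted, detected in these groups or not. miR-17, miR-17* and miR-106a were among the 8 only because Flut+Acy detected them, which favours a rise. The Sham values of miR-17 and miR-106a were the floor. A 2-fold or larger excess was seen for 6 of the 8 against 22.6% of the 283 miRNAs measured, and for 3 of the 8, miR-18a, miR-20a and miR-20b, against 11% when a miRNA undetected in 1 group was set there at the highest undetected signal of the array. None was 2-fold or more lower, against 16.6% of the 283. The median normalized difference was 1.64 log2 units over the 8 members and -0.18 over the 283. The largest values among the 8 were those of miR-17, miR-106a and miR-17*, which Sham did not detect. Without these members the median was 1.21 log2 units over the remaining 5, and -0.37 over the 189 miRNAs that were likewise detected in both groups. With all 567 mouse miRNAs tested, 1 of 9 members, miR-18a, was called, which its equal values on both Flut+Acy arrays fixed, with adjusted p-values of the other measured members from 0.0959 to 0.134. Of the 567, 2.82% were called higher.

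How far the members rose depended on the scaling. Their place among other miRNAs was compared only before and after quantile normalization, which keeps the order of miRNAs within an array. In the authors' deposited table the order among the members themselves differed, with miR-93 (3.18 log2 units) above miR-18a (2.67). Of the 189 miRNAs that Sham and each Flut+Acy array detected, 184 had a higher total signal on both Flut+Acy arrays before normalization, with a median ratio of 2.91. Against that background the ratio was 28.7 for miR-18a, 13.4 for miR-20a, 13.2 for miR-20b, 10.2 for miR-93 and 5.74 for miR-106b. In the order of the 189, counted from the largest difference, miR-18a ranked 9, miR-20a 19, miR-20b 20, miR-93 29 and miR-106b 43 before normalization, and 12, 21, 22, 28 and 51 after it. Without normalization the median over the 283 measured miRNAs moved to 1.75 log2 units, 73.2% of miRNAs were called higher and none lower.

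The partners that share precursors with the members gave differences in the same direction. Of 12 partners on the array 4 were detected, and all 4 were called higher in Flut+Acy than in Sham, against 25.5% of the 298 miRNAs. miR-19a was higher by 1.69 log2 units (limma, adjusted p = 0.00436) and miR-19b, which has a different seed from the members, by 1.53 ± 0.10 (SE; adjusted p = 0.0341). Both Flut+Acy arrays had the same normalized value of miR-19a, so its error came from the prior of the fit alone. miR-92a was higher by 0.72 ± 0.02 (SE; adjusted p = 0.0165) and miR-25, the partner of miR-93 and miR-106b, by 0.82 ± 0.04 (SE; adjusted p = 0.0256). Before and after normalization miR-92a thus lay below miR-93 and miR-25, so the order by cluster seen for the members did not extend to the partners. The other 8 partners, among them miR-18b, which has the seed of miR-18a, and miR-20b*, which has the seed of miR-17*, were detected on no array.

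**Figure D2:**
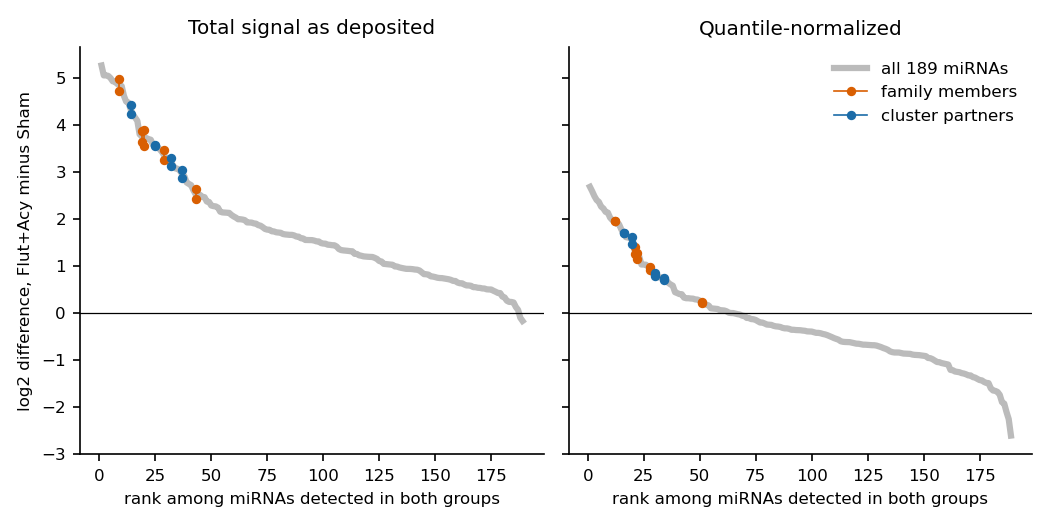
The log2 difference between Flut+Acy and Sham (y axis) is plotted against rank for the 189 miRNAs that these 3 arrays detected (grey), before and after quantile normalization, with each Flut+Acy array as a point for 5 family members (orange) and 4 cluster partners (blue). All 9 lie above 0 in both panels, and the whole grey curve sits lower after normalization.

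Markers of other cell types also differed between the arrays, and their total signals are given before normalization, where nearly all miRNAs were brighter in Flut+Acy. In each sum a negative signal counted as 0, such as that of miR-449c, -182 units in Flut+Acy+T. A plain sum would be lower where signals were negative. The 7 miRNAs listed for meiotic and later germ cells summed to 477 units in Sham, 7183 and 7463 in Flut+Acy and 3472 in Flut+Acy+T, and 3, 5, 5 and 3 of them were detected. Of these, miR-449b and miR-449c were detected on no array. The 13 listed for undifferentiated germ cells summed to 27.2, 190, 268 and 2838, with 1, 7, 7 and 1 detected. The 5 smooth muscle miRNAs summed to 1785, 2580, 3091 and 4488, with 5, 5, 5 and 3 detected. The 2 endothelial miRNAs summed to 649, 1986, 2155 and 4013, with 2, 2, 2 and 1 detected. The 6 blood miRNAs summed to 237, 395, 437 and 794, with 3, 5, 4 and 0 detected, and miR-144 was detected on no array.

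On the normalized scale that the family's differences use, with negative signals handled in the same way, the sums went different ways. The meiotic germ cell list summed to 1678 normalized units in Sham and 7151 and 6013 in Flut+Acy. The undifferentiated germ cell list summed to 200 in Sham and 318 and 342 in Flut+Acy. The smooth muscle list summed to 5142 in Sham and 2717 and 2860 in Flut+Acy, and the blood list to 1038 against 516 and 502. The endothelial list summed to 1647 against 2062 and 1938. Of the 2 gonadal somatic miRNAs on the array, miR-202-3p gave a total signal of 103 in Sham, 312 and 339 in Flut+Acy and 8.25, not detected, in Flut+Acy+T. miR-202-5p gave 0.509, not detected, in Sham, 21.5 and 27.0 in Flut+Acy and -22.5, not detected, in Flut+Acy+T. Their normalized differences between Flut+Acy and Sham were -0.37 (limma, adjusted p = 0.0716) and 2.86 log2 units (adjusted p = 0.00436), the second with Sham undetected. The part of other cells in the family's differences was not tested, and in pooled RNA fewer cells of a type and less RNA per cell cannot be told apart.

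The profile most like that of miR-20a was sought among miRNAs outside the family, since miR-20a was the only member with the miR-17 seed detected in every group. By the mean absolute difference of centred log2 values over the 4 arrays, among 75 miRNAs detected on all of them, the nearest 3 were miR-15b (0.17), miR-19b (0.17) and miR-34c (0.27). miR-34c also stands in the meiotic germ cell list.

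Testosterone replacement was addressed by comparing Flut+Acy+T with Flut+Acy. These groups share the Flut+Acy arrays with the comparison above, so members that were high there also enter high here. miR-20a was detected in both groups and differed by -1.83 ± 0.10 log2 units, lower in Flut+Acy+T (SE; limma, adjusted p = 0.0184). Before normalization its signal of 439 lay below the Flut+Acy values of 870 and 1016, and 1 of its 20 spots was well above background in Flut+Acy+T, against 20 of 20 on each other array.

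The other 7 members detected in Flut+Acy were not detected in Flut+Acy+T, where signals below 278 normalized units could go undetected. Against that limit, Flut+Acy exceeded Flut+Acy+T by at least 1.34-fold for miR-106b and at least 1.10-fold for miR-20b. These bounds were not tested. With the undetected signals as normalized, the differences were -2.76 log2 units for miR-106b (limma, adjusted p = 0.00276) and -2.17 for miR-20b (0.0147). miR-20b lost its call without normalization (-0.89 log2 units, limma, adjusted p = 0.0578). For miR-18a, miR-93, miR-17, miR-17* and miR-106a the limit lay above the Flut+Acy signals, so no fold is given. In the authors' deposited table the call of miR-93 was lost (-0.41, adjusted p = 0.10). In all, 8 of the 9 members were called lower, where 53.7% of miRNAs were, but for miR-17, miR-17*, miR-18a and miR-106a the Flut+Acy+T value was the floor itself, which fixed the size of the difference. With undetected signals set at their limit, 1 of 9 members, miR-20a, was 2-fold or more lower, against 4.71% of the 297 measured.

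miR-18a* went the other way. It gave 0.569 units in Sham, 2.48 and 6.28 in Flut+Acy and 525 in Flut+Acy+T, the only array that detected it. Its signal there was at least 15.7 times the limit of the Flut+Acy arrays, and miR-18a, from the same hairpin, was not detected there. The tested difference of miR-18a*, against the floor, was 5.80 log2 units (limma, adjusted p = 0.00111). Both Flut+Acy values of miR-18a* were the floor, so the error came from the prior of the fit alone. Total signals up to 498 units went undetected on the Flut+Acy+T array. Of the 20 miR-18a* spots on that array 5 were well above background and 4 were flagged as non-uniform, and the signals ran from 9.45 to 3860 with a median of 375. The 15 spots without an outlier flag reached at most 1054, with 1 spot well above background. The Flut+Acy+T array alone detected 15 miRNAs, 13 of them with a non-uniform spot, and 15.3% of their spots were flagged, against 5.40% for the 87 miRNAs detected there and elsewhere.

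**Figure D3:**
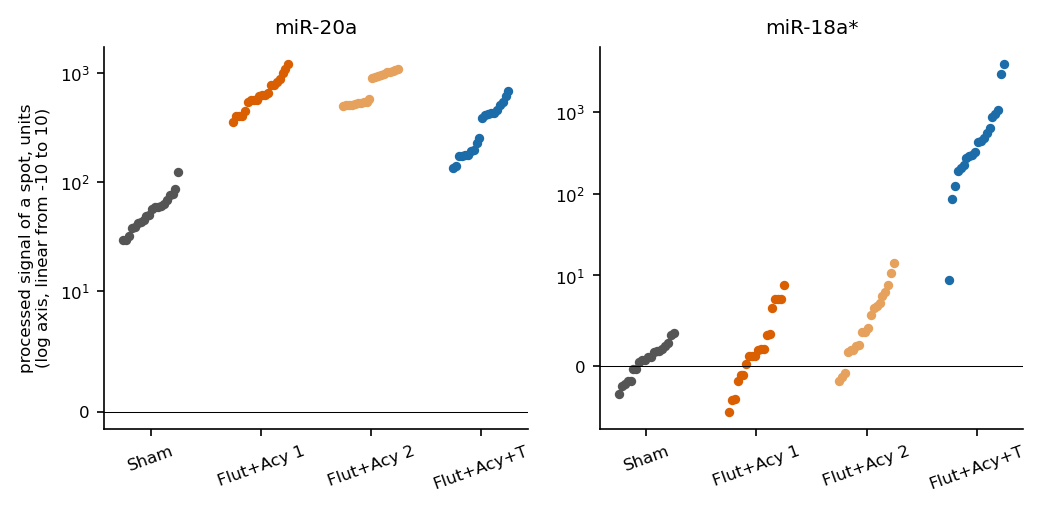
Each point is the processed signal of 1 of the 20 spots of miR-20a (left) or miR-18a* (right) on each array, in arbitrary units on an axis that is logarithmic beyond 10 and linear nearer 0, sorted within an array. The miR-18a* spots of Flut+Acy+T spread from 9.45 to 3860 units, and those of the other arrays lie near 0.

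Flut+Acy+T was last compared with Sham, which asks how near replacement came to the control level. Of the members, 6 were measured. miR-20a differed by -0.50 ± 0.12 log2 units (SE; limma, adjusted p = 0.119), and the sign turned to 2.65 without normalization and to 0.77 when the 75th percentile of miRNAs that all 4 arrays detected set the scale. For miR-106b the Sham signal was at least 1.15 times the Flut+Acy+T limit after quantile normalization, but its log2 difference was 0.97 without it. For miR-20b, miR-93 and miR-18a the limit lay above the Sham signals, and without normalization miR-20b and miR-93 were 2.83 and 1.85 log2 units higher in Flut+Acy+T. In all, 4 of the 6 were called lower. Of all 298 miRNAs fitted, detected in these groups or not, 48.3% were called lower. miR-17*, detected in neither group, was also called lower and is not among the 6. With undetected signals as normalized, 3 of the 6 were 2-fold or more lower, against 44.5% of the 218 measured. With those signals at their limit, 0 of the 6 were, against 4.13%. miR-18a* was called higher, as were 17.4% of the 298 miRNAs, and was the 1 member 2-fold or more higher with signals at their limit, against 16.1% of the 218. The direction of miR-20a, miR-20b, miR-93 and miR-106b against Sham thus changed with the scaling.

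**Figure D4:**
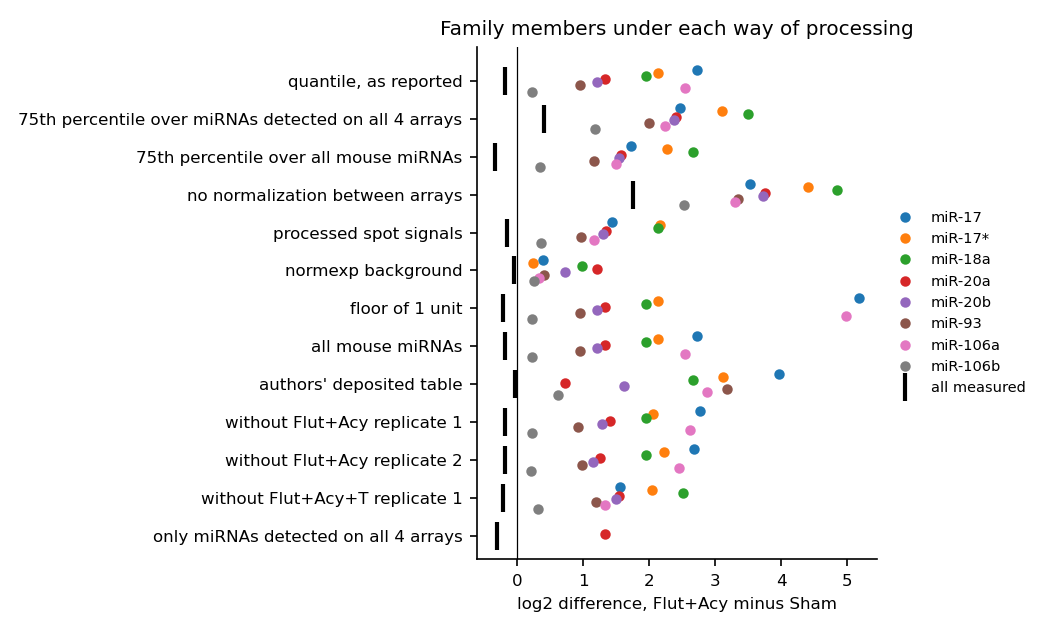
The log2 difference between Flut+Acy and Sham (x axis) is plotted for the 8 measured members under each way of processing, with the median of all measured miRNAs as a black bar. Every member stays above 0 in every row, from 0.21 for miR-106b to 5.18 for miR-17 with a floor of 1 unit, and lies to the right of the bar.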

How the data were processed

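RNA of purified Sertoli cells was hybridized to 4 Agilent miRNA arrays. Per the file headers, the authors extracted background-subtracted intensity values with Feature Extraction 9.5.3.1; their deposited value table, also of intensity, served as an alternative. The study's methods name a whole-genome array and quantile normalization in MATLAB. No column of sample values was left unused. Detection and outlier flags were taken as deposited.

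Total intensities of 567 mouse miRNAs were quantile-normalized, raised to at least 5.46 units (the lowest detected signal of each array, then the median of these), log2 transformed and fitted with limma 3.58.1 in R 4.3.3 over 3 groups. The fit had 1 residual degree of freedom, and 55 of 298 miRNAs had equal values on both Flut+Acy arrays. A miRNA was measured in a comparison if detected on at least 1 of its arrays. Where 1 group did not detect it, the fold is a bound against the highest undetected signal of each array of that group; this limit replaced the lowest detected signal after the data were seen, because many undetected miRNAs lay above the latter. The number of arrays limits the precision.

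The fit was tested on simulated data. It made few false calls where nothing changed or where arrays were not normalized, but after quantile normalization with many changed miRNAs the share of false calls rose above the nominal rate, so its adjusted p-values are too small.

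The members, their partners (same precursors or seed), the marker lists and the rule for the most similar profiles were chosen with earlier results of these data known. Per comparison 11 alternative ways of processing were planned beside the methods' analysis of variance, and 1 other was added after seeing the data. Probe spans were given in mm9, and sequences and hairpins came from RefSeq (GRCm38.p6).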

Additional observations from a re-analysis of the deposited data

How the results depend on the processing

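The 8 measured members all exceeded their Sham value in Flut+Acy under every alternative that could be fitted for them. The count called by limma there, 8, fell to 1 with all 567 mouse miRNAs tested, to 1 with only miRNAs detected on all 4 arrays, where miR-20a alone could be tested, and to 2 by the methods' analysis of variance after Benjamini-Hochberg (6 unadjusted). The count at least 2-fold higher, 6, fell to 1 with the normexp background and to 1 with only miRNAs detected on all 4 arrays, and was 7 without Flut+Acy+T replicate 1 (7 called), an alternative chosen after seeing the data. Against Flut+Acy, the 9 members called in Flut+Acy+T became 5 with all mouse miRNAs, 1 with only miRNAs detected on all 4 arrays and 3 by the analysis of variance after Benjamini-Hochberg. The 8 at least 2-fold lower, 7 of which were undetected in Flut+Acy+T and entered at their normalized value or the floor, became 5 with normexp and 1 with miRNAs detected on all 4 arrays, and the 1 higher became 0 there. Against Sham, the 5 called became 0 with miRNAs detected on all 4 arrays and 3 by the analysis of variance after Benjamini-Hochberg. The 1 at least 2-fold higher became 4 without normalization, 2 in the authors' deposited table and 0 with miRNAs detected on all 4 arrays, and the 3 lower became 1 when their 75th percentile set the scale, 1 without normalization, 1 with normexp and 0 with those miRNAs alone. Of the 218 miRNAs measured, 17.9% were 2-fold or more higher as reported above, 71.6% without normalization and 18.3% in the authors' table. Of the 76, 14.5% were. Among the 218, 97 were 2-fold or more lower as reported above, 57 with that percentile, 46 without normalization and 27 with normexp. Among the 76, 6 were.

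The authors' deposited table gave 6 members called in Flut+Acy against Sham, all higher, where 23.2% of the 298 miRNAs were called higher. Directions reversed in Flut+Acy+T against Sham alone. Without normalization miR-20a was at 2.65, miR-20b at 2.83, miR-93 at 1.85 and miR-106b at 0.97 log2 units, when the 75th percentile of miRNAs that all 4 arrays detected set the scale, miR-20a was at 0.77 and miR-20b at 0.95, and in the authors' table miR-93 was at 2.78. The cause was not tested. That percentile scaling also moved the share of calls that were higher in Flut+Acy, against Sham, from 47.2% to 78.7%, and without normalization every call was higher.

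Leaving out either Flut+Acy array left no residual degree of freedom, so it gave values and no test, and the counts at least 2-fold apart stayed at 6 higher against Sham, 8 lower in Flut+Acy+T against Flut+Acy and 3 lower against Sham. No paired analysis was possible because Sham and Flut+Acy+T have 1 array each. The lowest total signal detected on the Flut+Acy+T array was 238 units, and signals up to 498 units went undetected there.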
